A study of Mus musculus with 8 samples.

Results

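Pax5, Ebf1, Tcf3, Spib, Spi1, Pou2af1, Pou2f2, Ikzf1, Ikzf3 and Foxo1, 10 transcription factors and cofactors that set up and hold B cell identity, were read from the bulk RNA-seq count matrix by gene symbol. All 10 of 10 symbols were found among the 24902 symbols of the matrix. Each had at least 159 counts in every one of the 8 libraries, and all 10 passed the expression filter that left 13173 genes for testing.

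The libraries came from B cells isolated from the spleens of diseased mice at early removal criteria (ERC), the endpoint of disease at which a mouse was taken. The labels give C57BL/6N as the strain of every mouse, and the methods describe an Eµ-TCL1 parent on C57BL/6J. Eµ-PRMT5 mice (n = 4) carry human PRMT5, an arginine methyltransferase, behind an immunoglobulin VH promoter and the heavy chain enhancer Eµ. The paper describes this transgene as expressed in B cells both immature and mature. Eµ-PRMT5/TCL1 mice (n = 3) carry that transgene together with the Eµ-driven human TCL1 of the Eµ-TCL1 mouse, a widely used model of chronic lymphocytic leukemia. A single Eµ-TCL1 mouse (n = 1) carries TCL1 alone, so comparisons with it asked only whether that mouse lay outside the spread of the other groups, and both used the same mouse. Ages were not given, females and males were mixed, and libraries of wild-type mice were not analysed here. By the labels each library is a separate animal. The human transgenes have no row of their own in the matrix, so the genotypes were not checked by their expression.

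B cell fate is laid down in steps by these proteins. Tcf3 (E2A) and Spi1 (PU.1) act early, Ebf1 and Foxo1 then open the B lineage program, and Pax5 commits the cell by switching on B cell genes and switching off those of other lineages. Ikzf1 (Ikaros) and Ikzf3 (Aiolos) are zinc finger regulators of lymphocytes, Spib is a lymphoid relative of Spi1, and Pou2f2 (OCT2) with its coactivator Pou2af1 (OBF1) acts on octamer sites such as those of the immunoglobulin genes in mature B cells and plasma cells.

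In the mouse genome (GRCm38) the genes lie apart from each other on 7 chromosomes. Pax5 (chr4:44524757-44710487), Ebf1 (chr11:44617317-45008091), Tcf3 (chr10:80409514-80433647), Spib (chr7:44525993-44532071) and Spi1 (chr2:91082390-91115756) are the positions of the first 5. Pou2af1 (chr9:51213708-51240080), Pou2f2 (chr7:25087344-25179726), Ikzf1 (chr11:11685003-11772926), Ikzf3 (chr11:98464902-98546031) and Foxo1 (chr3:52268336-52353221) are those of the others.

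Total counts per library ran from 3356297 to 10252426. Eµ-PRMT5 mouse 1, with 5484833 counts, had a value for 16379 symbols, against 20411 to 21475 symbols in each other library. Levels are given as CPM, a gene's count scaled to the same total in each library, after TMM scaling, a correction for differences in library composition. A fixed list of 5 B cell markers was present in every library, and their summed level was 5353, 3719, 6484 and 1787 CPM in Eµ-PRMT5 mice 1 to 4, 3351, 4952 and 8289 CPM in Eµ-PRMT5/TCL1 mice 1 to 3, and 4627 CPM in the Eµ-TCL1 mouse. Eµ-PRMT5 mouse 4 stood apart from the rest with the lowest B marker sum. Its summed macrophage markers, 3353 CPM, lay above the 1136 to 1255 CPM of the other Eµ-PRMT5 mice, and Eµ-PRMT5 mouse 3 had the highest sum of T and NK cell markers, 575 CPM against 63.6 to 143 CPM elsewhere. In bulk samples of this kind, fewer cells of a type and less RNA per cell cannot be told apart. By the mouse numbers in the sample titles, the paper describes the histology of Eµ-PRMT5 mice 3 and 4. It reports anaplastic large lymphocytes with bland histiocytes for mouse 3. For mouse 4 it reports sheets of small lymphocytes, of the small lymphocytic lymphoma or chronic lymphocytic leukemia type. The part of this difference in the levels was not tested.

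To compare levels between genes, CPM was divided by the length of each gene's exons in kilobases. Spib stood highest, at 199 ± 132 CPM per kb (SD, n = 8 mice), and was above Spi1 in 7 of 8 mice. Spi1 at 82.4 ± 52.2, Pou2af1 at 75.7 ± 32.1 and Tcf3 at 64.0 ± 23.5 CPM per kb followed, and their order changed from mouse to mouse, with Spi1 above Pou2af1 in 3 of 8 mice and Pou2af1 above Tcf3 in 5 of 8. Tcf3 was above Ikzf3, at 51.0 ± 18.1 CPM per kb, in 7 of 8 mice. Ikzf3 in turn was above Ebf1 in 7 of 8. Ebf1, at 42.4 ± 41.0 CPM per kb, had an SD close to its mean, and it exceeded Ikzf1, at 29.1 ± 8.54 CPM per kb, in 4 of 8 mice. The lower end was formed by Pou2f2 at 19.5 ± 11.5, Pax5 at 12.4 ± 3.95 and Foxo1 at 10.5 ± 9.64 CPM per kb. Ikzf1 exceeded Pou2f2 in 7 of 8 mice, Pou2f2 exceeded Pax5 in 6 of 8, and Pax5 exceeded Foxo1 in 5 of 8. Exons of Pax5 and Foxo1 share 761 and 674 bases with genes on the opposite strand, and whether counting used strand is not given in the sources used here.

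**Figure D1:**
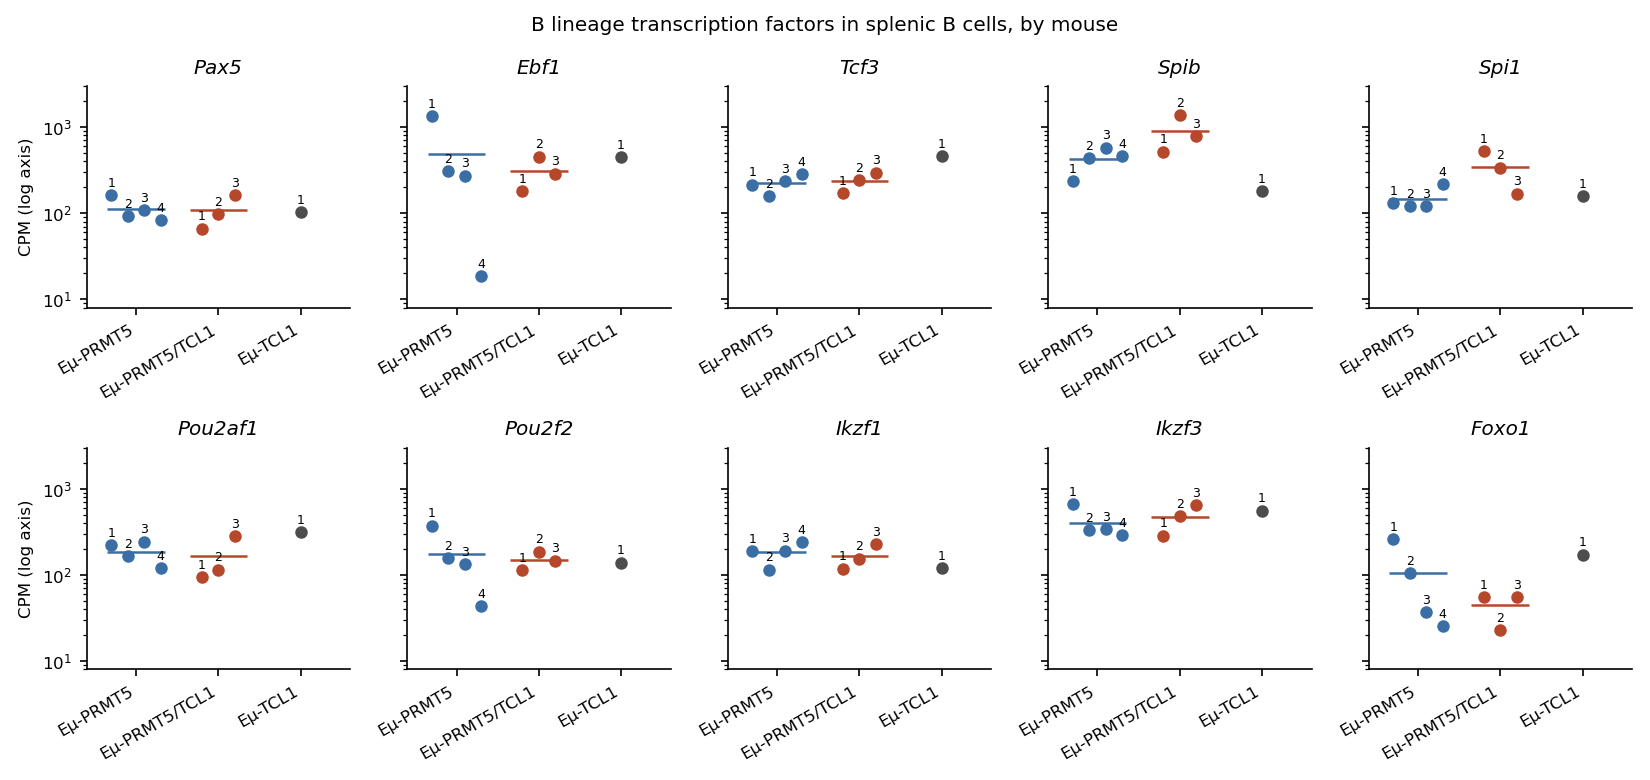
CPM of each transcription factor (log axis) in the 4 mice of the Eµ-PRMT5 group, the 3 of the Eµ-PRMT5/TCL1 group and the single Eµ-TCL1 mouse, with points numbered by mouse and lines at the group mean. Ebf1 runs from 18.4 to 1341 CPM among the Eµ-PRMT5 mice, while Pax5 stays between 65.9 and 162 CPM in all 8.

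The widest differences in the factors lay between individual Eµ-PRMT5 mice, and Ebf1 had the widest. Ebf1 was measured at 1341, 309.5, 272 and 18.4 CPM in Eµ-PRMT5 mice 1 to 4, at 179, 453 and 288 CPM in Eµ-PRMT5/TCL1 mice 1 to 3, and at 448 CPM in the Eµ-TCL1 mouse. Mouse 1 and mouse 4 of the Eµ-PRMT5 group lay at opposite ends of all 8 mice, 72.7-fold apart, and the Eµ-PRMT5/TCL1 mice fell between them within a 2.53-fold range. The low value rested on 160 counts in the deepest library of the series. The SD of log2 CPM among the Eµ-PRMT5 mice was 2.57 for Ebf1, larger than for 99.7% of all genes tested, whose median SD was 0.66. In the Eµ-PRMT5/TCL1 mice the SD of Ebf1 was 0.67, larger than for 81.0% of genes. With this spread, the log2 fold change of Eµ-PRMT5/TCL1 against Eµ-PRMT5 was -0.66 (SE 0.90, adjusted p = 1.00, edgeR quasi-likelihood test with Benjamini-Hochberg adjustment over all genes tested), and leaving out a single mouse turned its sign. It was 0.65 with mouse 1 of the Eµ-PRMT5 group left out and -1.06 with mouse 4 left out.

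Ebf1 and Pax5 normally sustain each other, but their levels separated in Eµ-PRMT5 mouse 4. The ratio of Ebf1 to Pax5 counts within a library, which does not depend on scaling between libraries, was 8.27, 3.32, 2.50 and 0.221 for mice 1 to 4 of the Eµ-PRMT5 group. In Eµ-PRMT5/TCL1 mice 1 to 3 it was 2.72, 4.67 and 1.78, and the Eµ-TCL1 mouse had a ratio of 4.35. Mouse 4 was the only library of the 8 with fewer Ebf1 than Pax5 counts. Against the mean log2 level of the 5 B markers, which were themselves low in that mouse, Ebf1 stood at -4.13 in mouse 4, 0.76 in mouse 1 and -2.43 to -0.51 on the log2 scale in the other 6 mice. Whether a smaller share of B cells in the sample took part in the low Ebf1 of mouse 4 was not tested, and Ebf1 was the lowest of the 8 there both in CPM and relative to the B markers.

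Pou2f2 and Foxo1 had their lowest or near-lowest levels in the same Eµ-PRMT5 mouse and their highest in mouse 1. For Pou2f2, 371, 155, 132 and 42.8 CPM were found in Eµ-PRMT5 mice 1 to 4, 114, 186 and 146 CPM in Eµ-PRMT5/TCL1 mice 1 to 3, and 138 CPM in the Eµ-TCL1 mouse. Eµ-PRMT5 mice 1 and 4 again enclosed all others, 8.67-fold apart. Foxo1, the forkhead factor that phosphoinositide 3-kinase signaling keeps out of the nucleus, reached 257, 104, 36.5 and 25.4 CPM in Eµ-PRMT5 mice 1 to 4, 54.9, 22.7 and 54.9 CPM in Eµ-PRMT5/TCL1 mice 1 to 3, and 171 CPM in the Eµ-TCL1 mouse. The Eµ-PRMT5 mice spanned a 10.1-fold range, 2 of the 3 Eµ-PRMT5/TCL1 mice lay inside it and 1 below it, and the Eµ-TCL1 mouse ranked second of the 8. The SDs of log2 CPM in the Eµ-PRMT5 group were 1.28 for Pou2f2 and 1.51 for Foxo1, above those of 89.5% and 94.3% of genes. The log2 fold changes of Eµ-PRMT5/TCL1 against Eµ-PRMT5 were -0.24 (SE 0.56) for Pou2f2 and -1.26 (SE 0.70) for Foxo1, and neither passed the test (adjusted p = 1.00 for both, edgeR). Without Eµ-PRMT5 mouse 1 the values were 0.46 and -0.31 respectively, so that Pou2f2 changed sign with that mouse left out. Against the Eµ-TCL1 mouse, Foxo1 had a log2 fold change of -1.95 (SE 0.94) for the Eµ-PRMT5/TCL1 group and -0.69 (SE 0.94) for the Eµ-PRMT5 group, with adjusted p = 0.778 and 0.865 (edgeR). The latter was -1.52 with mouse 1 of the Eµ-PRMT5 group left out, -0.41 with mouse 3 and -0.37 with mouse 4 left out.

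The sequences before the transcription starts of these 3 widely varying genes are shown with the letters of known B cell motifs in capitals, because factors of this group are known to regulate one another's genes. Each window runs from 250 to 61 bases before a RefSeq start (GRCm38.p6, 190 bases, gene strand, 5′ to 3′), ends short of the start and overlaps no annotated exon. For Ebf1 it is the second of its 2 listed starts, since the window of the first lies within an exon. The windows of Ebf1 and Pou2f2 lie inside the annotated span of their genes, before internal starts, and that of Foxo1 lies outside its gene.
Ebf1, chr11:44619978-44620167, plus strand: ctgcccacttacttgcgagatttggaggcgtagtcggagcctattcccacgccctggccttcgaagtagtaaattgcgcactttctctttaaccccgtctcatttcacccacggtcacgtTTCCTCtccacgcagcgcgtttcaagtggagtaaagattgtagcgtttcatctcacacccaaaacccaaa
Foxo1, chr3:52268087-52268276, plus strand: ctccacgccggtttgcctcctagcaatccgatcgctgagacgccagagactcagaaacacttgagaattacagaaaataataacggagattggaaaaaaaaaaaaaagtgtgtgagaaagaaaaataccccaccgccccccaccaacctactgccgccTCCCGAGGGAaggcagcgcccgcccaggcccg
Pou2f2, chr7:25132521-25132710, minus strand: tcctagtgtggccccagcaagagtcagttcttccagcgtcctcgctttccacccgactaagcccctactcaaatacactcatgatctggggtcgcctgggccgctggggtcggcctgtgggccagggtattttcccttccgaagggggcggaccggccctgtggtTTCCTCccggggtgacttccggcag
The motifs searched were GAGGAA (the core bound by Spi1 and Spib), ATGCAAAT (the octamer of Pou2f2), TCCC and GGGA separated by any 2 bases (the palindrome of Ebf1), and CAGGTG and CAGCTG (E-boxes, the sites of E proteins such as Tcf3), and no 2 matches overlapped. Both strands were searched. Ebf1 held GAGGAA, on the reverse strand and so printed as TTCCTC, 130 bases before this start, and Pou2f2 held it on the same strand 85 bases before its start, as did 18.0% of the 32851 windows of this length over all genes. Foxo1 held the Ebf1 palindrome 92 bases before its start, a sequence found in 0.578% of windows. The octamer, CAGGTG and CAGCTG, present in 1.25%, 13.8% and 9.81% of windows, were in none of the windows of the 8 factors that had one. A match is a description of the letters and was not tested as a binding site in these cells.

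Pax5 varied far less than Ebf1 among the Eµ-PRMT5 mice. Pax5 was found at 162, 93.1, 109 and 83.6 CPM in Eµ-PRMT5 mice 1 to 4, 65.9, 96.9 and 162 CPM in Eµ-PRMT5/TCL1 mice 1 to 3, and 103 CPM in the Eµ-TCL1 mouse. The groups overlapped, with means of 112 ± 35.1 (SD, n = 4) and 108 ± 48.9 CPM (SD, n = 3), and the log2 fold change between them was -0.048 (SE 0.38, adjusted p = 1.00, edgeR). All 8 mice lay within a 2.46-fold range. Its SD of log2 CPM in the Eµ-PRMT5 group, 0.42, was below the median of 0.66 over all genes tested. Among the Eµ-PRMT5/TCL1 mice it was 0.65, above the median of 0.36 and larger than for 79.7% of genes.

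Tcf3 was narrower still within the replicated groups and highest in the Eµ-TCL1 mouse. Its levels were 214, 159, 237 and 286 CPM in Eµ-PRMT5 mice 1 to 4, 172, 244 and 297 CPM in Eµ-PRMT5/TCL1 mice 1 to 3, and 459.9 CPM in the Eµ-TCL1 mouse. That mouse exceeded each of the other 7, while the replicated groups overlapped. The log2 fold change against the Eµ-TCL1 mouse was -1.04 (SE 0.47, unadjusted p = 0.0491, adjusted p = 0.709, edgeR) for Eµ-PRMT5 and -0.95 (SE 0.50, unadjusted p = 0.0799, adjusted p = 0.778, edgeR) for Eµ-PRMT5/TCL1. The p of the former was under 0.05 in 4 of 15 alternative settings, and it was 0.0991 with DESeq2 and 0.0995 with mouse 1 of the Eµ-PRMT5 group left out (edgeR). Between the replicated groups the log2 fold change was 0.084 (SE 0.35).

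The Ikaros family members had log2 fold changes smaller than their standard errors between the replicated groups. Ikzf1 was measured at 187, 115, 190.3 and 237 CPM in Eµ-PRMT5 mice 1 to 4, 118, 154 and 227 CPM in Eµ-PRMT5/TCL1 mice 1 to 3, and 118 CPM in the Eµ-TCL1 mouse. These values lay within 2.07-fold of each other. The highest value was in Eµ-PRMT5 mouse 4, the mouse with the lowest Ebf1. Ikzf3, which rises as B cells mature, was measured at 663, 326, 338 and 288 CPM in Eµ-PRMT5 mice 1 to 4, 285, 476 and 641 CPM in Eµ-PRMT5/TCL1 mice 1 to 3, and 555 CPM in the Eµ-TCL1 mouse. Mouse 1 of the Eµ-PRMT5 group and mouse 3 of the Eµ-PRMT5/TCL1 group were the highest, and the groups overlapped. Log2 fold changes of Eµ-PRMT5/TCL1 against Eµ-PRMT5 were -0.13 (SE 0.36) for Ikzf1 and 0.21 (SE 0.42) for Ikzf3. The ratio of Ikzf3 to Ikzf1 counts was 3.54, 2.85, 1.78 and 1.21 for mice 1 to 4 of the Eµ-PRMT5 group, 2.41, 3.09 and 2.83 for mice 1 to 3 of the Eµ-PRMT5/TCL1 group, and 4.68 for the Eµ-TCL1 mouse. The Eµ-PRMT5/TCL1 mice thus lay within a 1.28-fold range inside that of the Eµ-PRMT5 group, with the Eµ-TCL1 mouse above both.

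Pou2af1 and its partner Pou2f2 had their highest levels in different mice. Pou2af1 reached 218, 164, 241 and 118 CPM in Eµ-PRMT5 mice 1 to 4, 94.1, 114 and 282 CPM in Eµ-PRMT5/TCL1 mice 1 to 3, and 309.6 CPM in the Eµ-TCL1 mouse, the highest of the 8. Among Eµ-PRMT5/TCL1 mice, 2 lay below every Eµ-PRMT5 mouse and 1 above them all. The log2 fold change between these groups was -0.18 (SE 0.43), and those against the Eµ-TCL1 mouse were -0.74 (SE 0.60) for Eµ-PRMT5 and -0.92 (SE 0.62) for Eµ-PRMT5/TCL1. Pou2f2 to Pou2af1 count ratios ran from 0.361 to 1.70 in Eµ-PRMT5 mice and from 0.517 to 1.63 in Eµ-PRMT5/TCL1 mice, and the ratio was 0.445 in the Eµ-TCL1 mouse.

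The related ETS factors Spib and Spi1 were the 2 factors that reached an unadjusted p under 0.05 between the replicated groups, both with the higher mean in Eµ-PRMT5/TCL1 mice. Spib was measured at 234, 438, 575 and 459.6 CPM in Eµ-PRMT5 mice 1 to 4, 517, 1387 and 786 CPM in Eµ-PRMT5/TCL1 mice 1 to 3, and 180.3 CPM in the Eµ-TCL1 mouse. The Eµ-PRMT5/TCL1 mice included the 2 highest values of the series, their lowest value overlapped the Eµ-PRMT5 group, and the Eµ-TCL1 mouse was the lowest of the 8. The group means were 897 ± 445 CPM (SD, n = 3) and 427 ± 142 CPM (SD, n = 4), with a log2 fold change of 1.07 (SE 0.43, unadjusted p = 0.0291, adjusted p = 1.00, edgeR). Against the Eµ-TCL1 mouse, the log2 fold change of Spib was 2.31 (SE 0.77, unadjusted p = 0.0106, adjusted p = 0.778, edgeR) for Eµ-PRMT5/TCL1 and 1.24 (SE 0.70, unadjusted p = 0.101, adjusted p = 0.709, edgeR) for Eµ-PRMT5. All 3 Eµ-PRMT5/TCL1 and all 4 Eµ-PRMT5 mice lay above that mouse. Scaled to B markers, the former was 1.87 with an unadjusted p of 0.194, and the latter reached an unadjusted p of 0.0451 with DESeq2 and 0.0392 with mouse 1 of the Eµ-PRMT5 group left out (edgeR).

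Spi1 reached 131, 122, 119.9 and 219 CPM in Eµ-PRMT5 mice 1 to 4, 522, 337 and 168 CPM in Eµ-PRMT5/TCL1 mice 1 to 3, and 158 CPM in the Eµ-TCL1 mouse. Mice 1 and 2 of the Eµ-PRMT5/TCL1 group exceeded all others, and mouse 3 lay below Eµ-PRMT5 mouse 4. Means were 342 ± 177 CPM (SD, n = 3) for Eµ-PRMT5/TCL1 and 148 ± 47.5 CPM (SD, n = 4) for Eµ-PRMT5, a log2 fold change of 1.21 (SE 0.41, unadjusted p = 0.0125, adjusted p = 1.00, edgeR). Spi1 is also the central factor of macrophages and neutrophils, and the summed markers of these cells were highest in the mice with the highest Spi1. The samples had been prepared with a pan-B cell isolation kit. The 6 of 10 macrophage markers with a value in every library summed to 7359 and 2721 CPM in Eµ-PRMT5/TCL1 mice 1 and 2 and 3353 CPM in Eµ-PRMT5 mouse 4, while the sums ran from 997 to 1255 CPM in the other 5 mice. Those were the same 3 mice that had the highest Spi1. Most of each of their sums was 1 gene, Lyz2, the macrophage lysozyme, at 6224, 2092 and 2865 CPM. Csf1r and Cd68 were also highest in these 3 mice, but Cd14, Adgre1 and Vcam1 were not. Adgre1 was highest in Eµ-PRMT5 mouse 2 at 72.7 CPM and Vcam1 in Eµ-PRMT5 mouse 3 at 38.3 CPM. The 10 of 10 neutrophil markers summed to 9200.3, 5121 and 5422 CPM in the 3 mice with the highest Spi1 and to 429 to 2713 CPM in the rest. Singly, the neutrophil markers were highest in those 3 mice except for Ltf and Mmp8. None of the summed macrophage and neutrophil markers was at 0. Lyz2 ranged from 708 to 6224 CPM, and Mpo, myeloperoxidase of neutrophil precursors, from 51.8 to 3498 CPM. The part of myeloid RNA in the Spi1 difference was not tested. Spib did not share the order of Spi1. Its value in Eµ-PRMT5/TCL1 mouse 1, where the myeloid marker sums were highest, was the lowest of that group.

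The unadjusted p-values of this pair, neither of which was called, were sensitive to single mice and to scaling. Spib had a log2 fold change of 0.89 (unadjusted p = 0.0621, edgeR) when mouse 1 of the Eµ-PRMT5 group was left out and 1.08 (unadjusted p = 0.0533) when its mouse 2 was, so the size changed little there. It fell to 0.61 (unadjusted p = 0.224, edgeR) without Eµ-PRMT5/TCL1 mouse 2, and Spi1 fell to 0.77 (unadjusted p = 0.106, edgeR) without Eµ-PRMT5/TCL1 mouse 1. With each library scaled to its B markers, the log2 fold changes were 0.77 for Spi1 and 0.52 for Spib, while the median over all genes tested moved by -0.47, and neither unadjusted p stayed under 0.05. With Eµ-PRMT5 mouse 4 left out, the log2 fold changes were 1.46 for Spi1 and 1.11 for Spib.

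**Figure D2:**
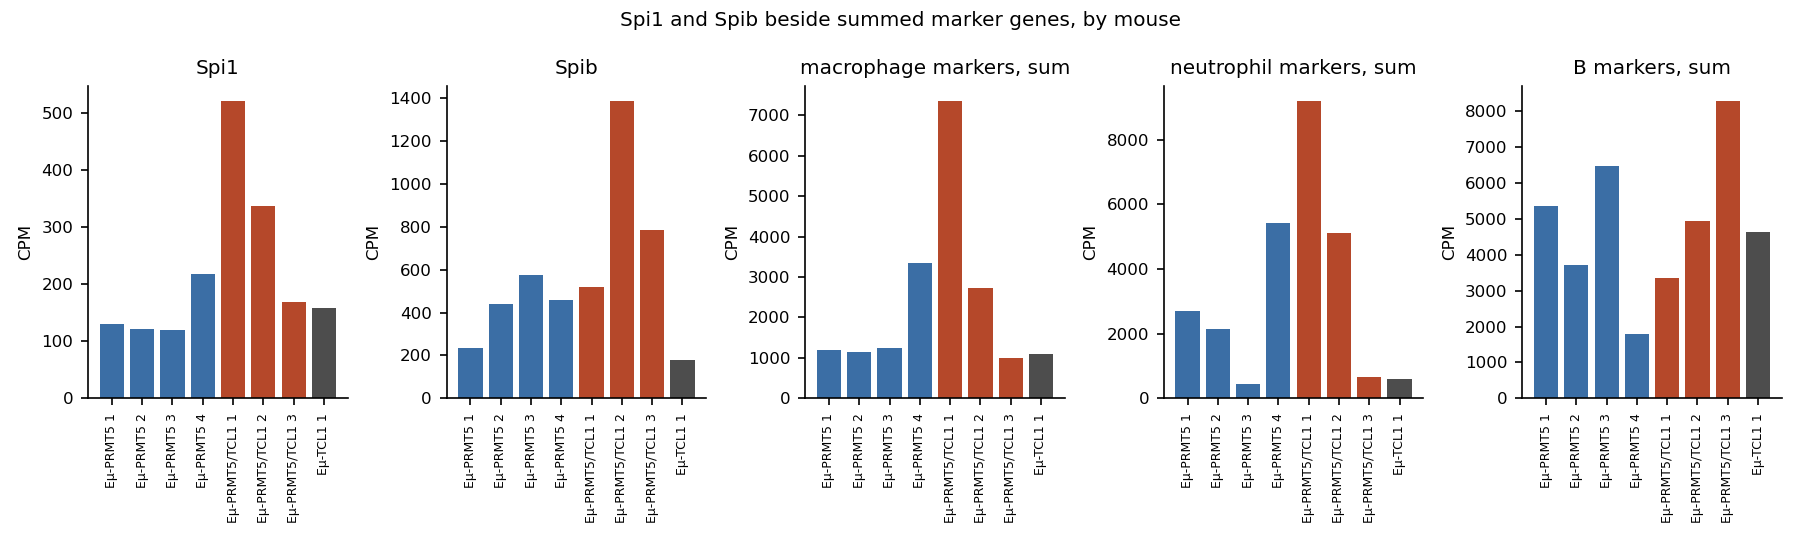
CPM of Spi1 and Spib and summed CPM of macrophage, neutrophil and B cell markers, 1 bar per mouse, coloured blue for Eµ-PRMT5, red for Eµ-PRMT5/TCL1 and dark grey for Eµ-TCL1. The 3 mice with the highest Spi1, up to 522 CPM, also have the highest macrophage and neutrophil sums, and Spib peaks in another mouse at 1387 CPM.

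As a group, the 10 factors showed no shared direction between the replicated genotypes, with log2 fold changes above 0 for 4 and below 0 for 6. In Eµ-PRMT5/TCL1 against Eµ-PRMT5, 0 of 10 passed an adjusted p under 0.05, as did 0 of all 13173 genes tested by edgeR (0%). DESeq2 also called 0 of the 10 factors, and 3 genes higher and 1 lower over the whole table. At an unadjusted p under 0.05 there were 2 of 10, both higher (Spi1 and Spib), where 2.17% of all genes reached that level. No factor had groups that did not overlap, against 2.95% of all genes. The median log2 fold change of the factors was -0.091, and that of all genes tested was -0.093.

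For Eµ-PRMT5 against the Eµ-TCL1 mouse, 0 of 10 factors and 0% of all genes were called at an adjusted p under 0.05 by edgeR, and DESeq2 called 4 genes higher and 14 lower. This comparison shares the Eµ-PRMT5 mice with the one before. At an unadjusted p under 0.05 there was 1 of 10, Tcf3, lower in Eµ-PRMT5, beside 6.78% of all genes. The Eµ-TCL1 mouse lay below the whole Eµ-PRMT5 group for 1 factor, Spib (17.9% of all genes), and above it for 2, Tcf3 and Pou2af1 (24.4% of all genes). The median log2 fold change was 0.0074 for the factors and 0.042 for all genes.

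For Eµ-PRMT5/TCL1 against the same mouse, 0 of 10 factors and 0% of genes were called at an adjusted p under 0.05 by edgeR, and 1 of 10, Spib, higher in Eµ-PRMT5/TCL1, reached an unadjusted p under 0.05 beside 6.09% of all genes. The Eµ-TCL1 mouse lay below the whole group for 2 factors, Spib and Spi1 (27.6% of all genes), and above it for 3, Tcf3, Pou2af1 and Foxo1 (39.0% of all genes). DESeq2 called 9 genes higher and 7 lower over the whole table. The median log2 fold change was -0.089 for the factors and -0.073 for all genes.

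**Figure D3:**
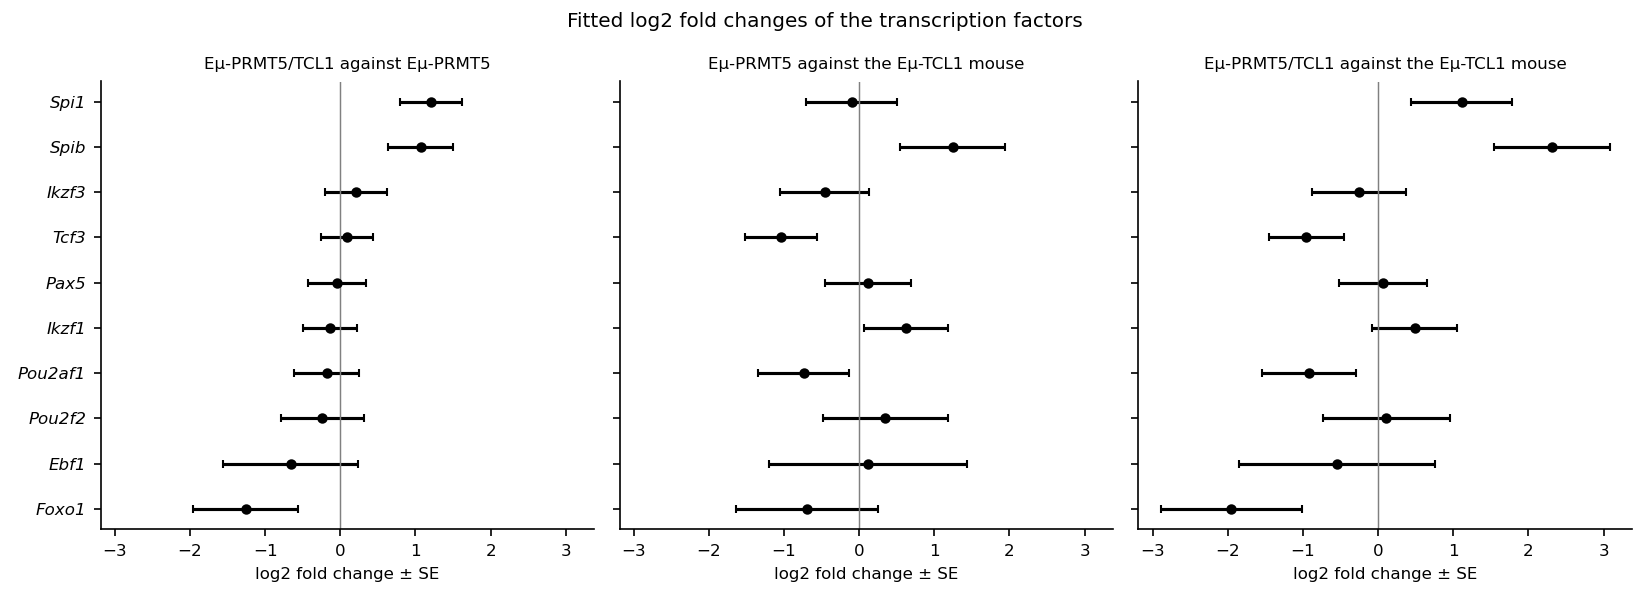
Fitted log2 fold changes (x axis) of the 10 factors with standard errors as bars in the 3 comparisons, ordered by Eµ-PRMT5/TCL1 against Eµ-PRMT5. Spi1 at 1.21 and Spib at 1.07 are at one end and Foxo1 at -1.26 at the other, and no value passed an adjusted p under 0.05.

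Relatives of the factors were partly below the filter. Of 20 paralogs, 19 were in the matrix and 9 passed the filter, and 0 of these reached an unadjusted p under 0.05 between Eµ-PRMT5/TCL1 and Eµ-PRMT5 (median log2 fold change -0.059). Tcf4 (E2-2), the E protein related to Tcf3, was measured at 894, 506, 383 and 647 CPM in Eµ-PRMT5 mice 1 to 4, 321, 416 and 469 CPM in Eµ-PRMT5/TCL1 mice 1 to 3, and 398 CPM in the Eµ-TCL1 mouse. Tcf4 had a log2 fold change of -0.60 (SE 0.39) between the replicated groups, and the Eµ-PRMT5 group had the higher mean. Spic, an ETS relative of Spi1 and Spib, stayed between 10.5 and 38.1 CPM, and Foxo3 between 15.4 and 41.6 CPM. The Ebf1 relatives Ebf2, Ebf3 and Ebf4 lacked a value in 2, 3 and 4 of 8 libraries and did not exceed 11.1 CPM in any.

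Other transcription factors of B cells had lower fitted levels in Eµ-PRMT5/TCL1 for 16 of the 20 that were tested, as had 7823 of all 13173 genes, and none passed the test. Of the list of 21, 0 were called, and 1 reached an unadjusted p under 0.05 between Eµ-PRMT5/TCL1 and Eµ-PRMT5, Xbp1, the factor of the plasma cell secretory program, at a log2 fold change of -1.34 (SE 0.61). The median of the list was -0.46 beside -0.093 for all genes. Irf4, a factor of activated B cells and plasma cells, had a log2 fold change of -0.82 (SE 0.48), Bach2, a repressor of plasma cell genes, -0.77 (SE 0.71), and Irf8, which pairs with Spi1, -0.76 (SE 0.48). The single high values of Irf4 and Irf8, 387 and 1141 CPM, were both in Eµ-PRMT5 mouse 2.

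Genes that Pax5, Ebf1 and their partners switch on had log2 fold changes above 0 for 9 and below 0 for 7 between the replicated groups. Of 16 such targets 16 were tested, 0 were called, and 1 reached an unadjusted p under 0.05, Fcer2a (CD23), with a log2 fold change of -2.76 (SE 0.93). Fcer2a was measured at 12.6, 19.3, 38.5 and 1.73 CPM in Eµ-PRMT5 mice 1 to 4, 2.13, 0.858 and 4.92 CPM in Eµ-PRMT5/TCL1 mice 1 to 3 and 2.70 CPM in the Eµ-TCL1 mouse, so that Eµ-PRMT5 mouse 4 lay among the Eµ-PRMT5/TCL1 mice. The complement receptor Cr2 had a log2 fold change of -1.06 (SE 1.13), the inhibitory coreceptor Cd72 0.77 (SE 0.51) and the adaptor Blnk -0.75 (SE 0.43). The median over the list was 0.11, and that of all genes -0.093. Eµ-PRMT5 mouse 4 was the lowest of the 8 mice for 10 of the 16 targets, where 18.0% of all genes tested had their lowest value in it. Blnk, in contrast, was highest in the same mouse at 1113 CPM.

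**Figure D4:**
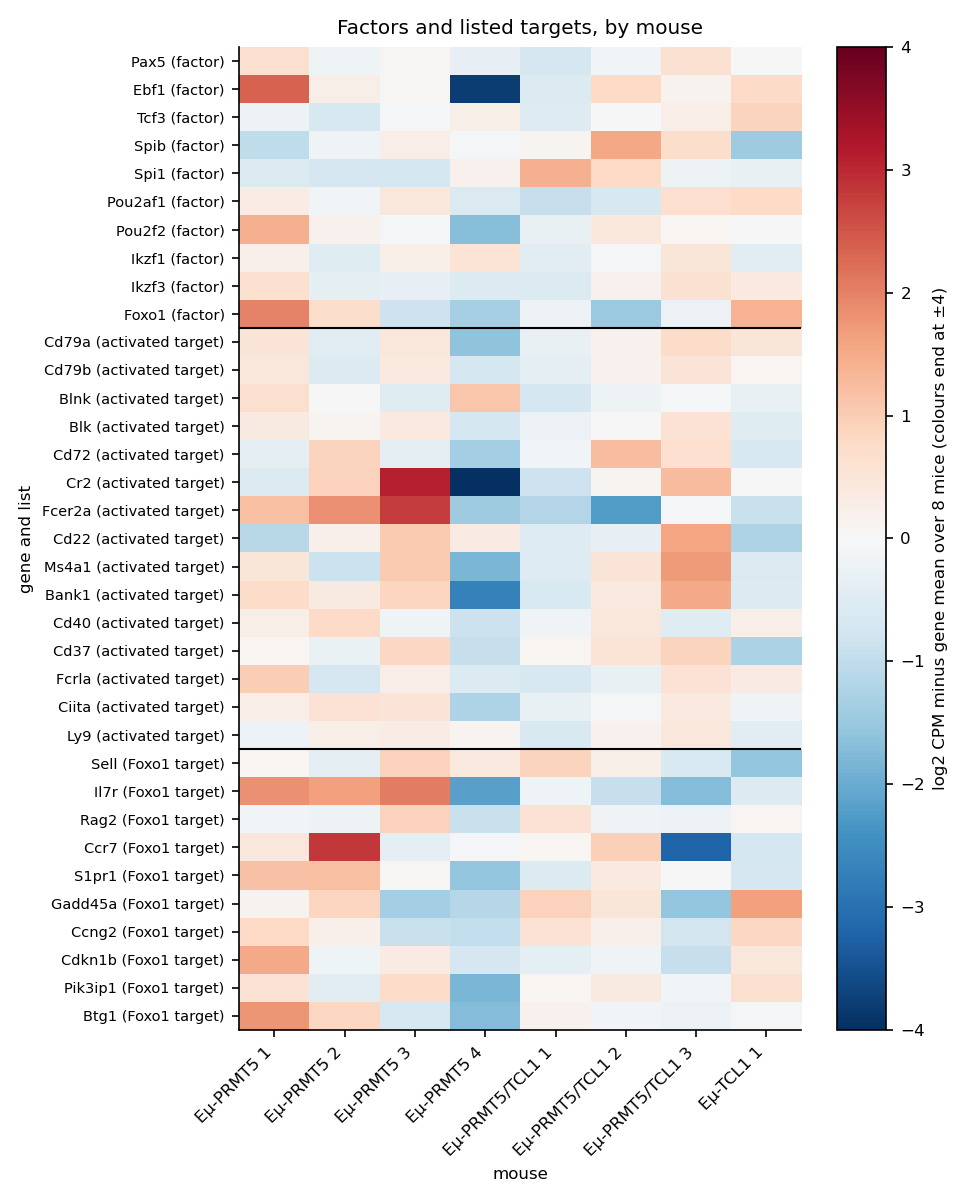
Log2 CPM minus the mean of each gene over 8 mice, in colour, for the 10 factors, 15 of the 16 activated targets and 10 tested Foxo1 targets (rows) in each mouse (columns). The column of Eµ-PRMT5 mouse 4 is blue for Ebf1, Pou2f2, Foxo1 and most targets, while Blnk, Ikzf1, Tcf3 and Spi1 are on the red side.

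Genes that Pax5 holds down had log2 fold changes above 0 for 4 and below 0 for 4. Of the 8, all were tested and 0 were called, the median log2 fold change was -0.059, and 1 reached an unadjusted p under 0.05 with groups that did not overlap. It was Sdc1 (CD138), a marker of plasma cells, with 203, 114, 60.0 and 37.0 CPM in Eµ-PRMT5 mice 1 to 4, 9.84, 9.44 and 35.5 CPM in Eµ-PRMT5/TCL1 mice 1 to 3 and 41.4 CPM in the Eµ-TCL1 mouse (log2 fold change -2.50, SE 0.66, unadjusted p = 0.00261, adjusted p = 1.00, edgeR). All 6 plasma cell markers had log2 fold changes below 0, as had 7823 of all 13173 genes. Their median was -0.78, and the smallest change was that of Mzb1 at -0.010. The summed plasma cell markers overlapped between the groups. They were at 6033, 2668, 2079 and 1232 CPM in Eµ-PRMT5 mice 1 to 4 and 867, 771 and 3475 CPM in Eµ-PRMT5/TCL1 mice 1 to 3. Csf1r, the macrophage receptor, had a log2 fold change of 1.05 (SE 0.71) and its highest levels, 341 and 178 CPM, in Eµ-PRMT5/TCL1 mouse 1 and Eµ-PRMT5 mouse 4, which were among the mice high in the other myeloid markers. Cd28 and Emb had log2 fold changes of -0.75 (SE 0.57) and 0.41 (SE 0.66).

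Of 11 genes known as targets of Foxo1, 10 were tested, 0 were called, and the median log2 fold change was -0.31. Il7r, the interleukin 7 receptor of B cell precursors and T cells, was the 1 target at an unadjusted p under 0.05, with 30.6, 26.8, 35.8 and 1.61 CPM in Eµ-PRMT5 mice 1 to 4, 7.38, 4.29 and 2.31 CPM in Eµ-PRMT5/TCL1 mice 1 to 3 and 5.68 CPM in the Eµ-TCL1 mouse (log2 fold change -2.34, SE 0.85). T and NK cell markers were also highest in 1 of the Eµ-PRMT5 mice, mouse 3, where Il7r was highest. In Eµ-PRMT5 mice 1 and 2, next highest in Il7r, these markers summed to 72.0 and 65.4 CPM. Those sums lay within the 63.6 to 143 CPM of Eµ-PRMT5 mouse 4, the Eµ-PRMT5/TCL1 mice and the Eµ-TCL1 mouse. The part of T and NK cells in Il7r was not tested. Ccr7, a lymph node homing receptor, had a log2 fold change of -1.29 (SE 0.91), the cell cycle inhibitor Cdkn1b -0.93 (SE 0.59) and the antiproliferative gene Btg1 -0.65 (SE 0.65). Eµ-PRMT5 mouse 4, next to lowest in Foxo1 itself, was the lowest of the 8 for 6 of the 10 targets. Over all genes tested, 18.0% had their lowest value in that mouse. Low targets did not follow Foxo1 in every mouse. Eµ-PRMT5/TCL1 mouse 2, the lowest in Foxo1 at 22.7 CPM, was the lowest for 0 of the targets. Eµ-PRMT5/TCL1 mouse 3, with Foxo1 at 54.9 CPM, was the lowest for 3.

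The likeness of patterns over the 8 mice was measured as the root mean square difference of log2 CPM after centring each gene on its mean, so that 0 would be an identical pattern. Between factors, Pax5 and Ikzf3 were the closest pair, at 0.250, with 33 of all genes tested closer to Pax5 than Ikzf3 was. The factor nearest to Ebf1 was Pou2f2 at 0.880, with 37 genes closer and a median of 1.73 over all genes. Foxo1 also had Pou2f2 as its nearest factor, at 0.938. Spib and Spi1 were nearest to each other among the factors, but at 0.854 the distance was close to the median of 0.930 between Spi1 and all genes. Among all genes tested, those most like Ebf1 were Zbtb4 (0.453), Cbarp (0.520) and Tmem102 (0.547), and those most like Spi1 were Stom (0.233), Nr1h3 (0.236) and Tlr4 (0.289). The nearest genes to Spib were Pdxk (0.307), Cd274 (0.341) and Il10ra (0.355), to Foxo1 Carns1 (0.331), Gm15743 (0.346) and Atp6v1g2 (0.353) and to Pou2f2 Iqsec1 (0.184), Prmt2 (0.229) and Btg2 (0.229). Pax5 lay nearest to Top2b (0.141), Camk2d (0.162) and Nsmaf (0.164), Tcf3 to Helq (0.0770), 9130011E15Rik (0.149) and Sfxn2 (0.155) and Pou2af1 to Mettl15 (0.182), Ptp4a3 (0.229) and Fez1 (0.257). For Ikzf1 they were Wiz (0.159), Rasal1 (0.167) and Park7 (0.170), and for Ikzf3 Nicn1 (0.137), Ppm1d (0.171) and 1810014B01Rik (0.202).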

How the data were processed

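For splenic B cells of 8 mice, the authors deposited a matrix of read counts by gene symbol that is neither normalized nor pooled. By the methods, a low-input preamplification protocol, Nextera XT libraries, paired-end sequencing and the CLEAR workflow were used, whereas the labels describe a stranded kit. The submitters' processing notes name featureCounts, DESeq2 1.20.0 and GRCm38, and the aligner, annotation and use of strand are not given in the sources used here. Some values are missing rather than 0, so the fit began from the 14072 symbols that had one in each of the 8 libraries. Spreadsheet dates stand in place of 26 symbols.

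Counts were scaled by TMM and fitted in edgeR 4.0.16 (R 4.3.3) after its expression filter by group, in 1 quasi-likelihood model over all 3 groups, with Benjamini-Hochberg adjustment over 13173 genes and a threshold of 0.05. Variability was estimated from the Eµ-PRMT5 and Eµ-PRMT5/TCL1 mice, with a biological coefficient of variation of 0.483. Log2 CPM used a prior count of 2. DESeq2 1.42.0, other scalings, filters and left-out mice were alternatives, and the code was tested on simulated data. The standard error is the log2 fold change divided by the square root of the F statistic.

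Exon lengths are from GENCODE M21 (GRCm38), the build of the files. Promoter windows are from RefSeq, with an entry for 8 of 10 factors. The factors, gene lists and motifs were chosen with earlier results of these data known, so they are not independent of them. Named were the 10 factors, their paralogs, at most 4 genes per other list by the size of the log2 fold change between Eµ-PRMT5/TCL1 and Eµ-PRMT5, defining markers beside a result, and the 3 genes nearest in pattern. Irf4, Irf8, Csf1r and Blnk values by mouse, the ratios, and the counts of lowest mice were chosen after their values were seen. Replicate numbers are shared between groups but belong to different animals, so they were not taken as pairs. Values of 1 listed gene are not reported here. No other columns were present in the matrix.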

Additional observations from a re-analysis of the deposited data

Results flagged for a closer look

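Among the 15 values examined in the 4 Eµ-PRMT5 mice, the 10 factors and 5 count ratios, 2 had 1 mouse far from the others by Dixon's criterion (the gap to the nearest mouse, as a share of the whole range), where chance gives about 1 in 20 for independent, normally distributed values. The 15 values come from the same 4 mice, and the ratios are made from counts of the factors. They are not independent, so 2 of 15 cannot be read as more than that rate. Spi1 in Eµ-PRMT5 mouse 4 was 219 CPM, with the next mouse at 131 and the lowest at 119.9 CPM (share of the range 0.891), and this mouse also had the highest macrophage and neutrophil marker sums of the group. Ikzf3 in Eµ-PRMT5 mouse 1 was 663 CPM, with the next mouse at 338 and the lowest at 288 CPM (share of the range 0.865). Ebf1 had a wider spread than either but was not singled out in this way, since mouse 4 was far below and mouse 1 far above the middle mice.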

How the results depend on the processing

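No factor was called between Eµ-PRMT5/TCL1 and Eµ-PRMT5 under any alternative run (0 of 10 each time), and of the 480 refitted log2 fold changes of single factors 441 kept their sign while 39 did not, and the cause was not tested. The factors at an unadjusted p under 0.05 between these groups numbered 2, 0 when scaled to B markers, and 1 to 3 with single mice left out (lowest without mouse 1 or 2 of either group). Against the Eµ-TCL1 mouse, the Eµ-PRMT5 count of 1 fell to 0 with B markers, without a filter, with missing values as 0 and with only the groups compared (0 to 1 with mice left out, lowest without Eµ-PRMT5 mouse 2 or 3 or any Eµ-PRMT5/TCL1 mouse, and Spib in place of Tcf3 with DESeq2 or without Eµ-PRMT5 mouse 1), and the Eµ-PRMT5/TCL1 count of 1 was 3 with upper-quartile or library size scaling and 2 with only the groups compared, and with B markers it was Foxo1 (unadjusted p = 0.0349, edgeR) in place of Spib (1 to 2 with mice left out, highest without Eµ-PRMT5 mouse 1 or 4 or Eµ-PRMT5/TCL1 mouse 3). Factors with groups that did not overlap numbered 1 with B markers or missing values as 0 and 0 to 2 with mice left out (above 0 without Eµ-PRMT5 mouse 3 or 4 or Eµ-PRMT5/TCL1 mouse 1 or 3). The share of all genes without overlap was not taken under these settings. Nor was the share at an unadjusted p under 0.05, except with DESeq2, so these counts of factors have no background beside them. The median log2 fold change of the factors scaled to B markers was -0.61 for Eµ-PRMT5/TCL1 against Eµ-PRMT5 and -0.66 against the Eµ-TCL1 mouse, where the medians of all genes moved by -0.47 and -0.39, and with mice left out that of Eµ-PRMT5 against the Eµ-TCL1 mouse ran from -0.46 to 0.090, lowest without Eµ-PRMT5 mouse 1.

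The log2 fold changes that turned sign follow. Between the replicated groups these were Pax5 at 0.026 (upper quartile) and Tcf3 at -0.60 and Ikzf3 at -0.34 (B markers). For Eµ-PRMT5 against the Eµ-TCL1 mouse they were Spi1 at 0.0021 (DESeq2), 0.18 (B markers) and 0.20 (missing as 0), Pax5 at -0.043 (upper quartile) and -0.13 (library size), and Ebf1 at -0.085, -0.17 and -0.18 (upper quartile, library size, B markers). For Eµ-PRMT5/TCL1 against that mouse they were Pax5 at -0.018, -0.15 and -0.52 (same order), Pou2f2 at -0.12 and -0.32 (library size, B markers), Ikzf1 at -0.040 (B markers) and Ikzf3 at 0.051 (missing as 0). With mice left out, the ranges that crossed 0 were, between the replicated groups, Pax5 -0.46 to 0.21, Ebf1 -1.06 to 0.65, Pou2f2 -0.56 to 0.46, Tcf3 -0.11 to 0.27, Ikzf1 -0.42 to 0.061, Pou2af1 -0.83 to 0.10 and Ikzf3 -0.087 to 0.58. For Eµ-PRMT5 against the Eµ-TCL1 mouse they were Pax5 -0.0075 to 0.24, Ebf1 -1.07 to 0.52, Spi1 -0.35 to 0.071 and Pou2f2 -0.23 to 0.67, and for Eµ-PRMT5/TCL1 against it Ikzf3 -0.55 to 0.0086, Pou2f2 -0.086 to 0.27 and Pax5 -0.34 to 0.33.

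With the replicate number as a block (mice 1 to 3 of each group), 3 factors were at an unadjusted p under 0.05 (Spi1, Spib and Foxo1), as in the same 6 mice without the replicate block (3), an alternative chosen after seeing the data. The share of all genes at that level was not taken, either with the replicate numbers or without them. The numbers do not mark shared animals, the deviations of mice with the same number from their group means correlated at -0.0206, 0.154 and 0.160, and 3 of 3 Eµ-PRMT5/TCL1 mice and 2 of 3 Eµ-PRMT5 mice correlated best with their own number. The log2 fold change of Ikzf1, -0.13 over all mice, turned to 0.0033 with the replicate block and 0.015 in the same 6 mice without it. The depth of 3356297 to 10252426 counts left each factor with at least 159 counts in every library, and since the libraries were preamplified these reads need not be independent molecules.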

Other observations

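Eµ-PRMT5 mouse 1 had the highest level of the 8 mice for 5 of the 10 factors (Pax5, Ebf1, Pou2f2, Ikzf3 and Foxo1), where 19.3% of all genes tested had their highest level in it. Its library had values for the fewest symbols, 16379, and the part of this in its levels was not tested. Ets1 and Foxp1, partner factors of B cell development picked here after their values were seen, stood at 2022, 468, 619.6 and 121 CPM and 1574, 545, 469 and 280.0 CPM in Eµ-PRMT5 mice 1 to 4, with mouse 1 highest and mouse 4 lowest as for Ebf1. Over the 20 partner factors tested, mouse 1 was the highest of the 8 for 6 and mouse 4 the lowest for 6, while 18.0% of all genes were lowest in mouse 4. The summed plasma cell markers were also highest in mouse 1, at 6033 CPM against 771 to 3475 CPM in the other mice.

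The remaining marker lists are given here by their medians. Of the B-1 markers 5 of 5 were tested with a median log2 fold change of 0.19 for Eµ-PRMT5/TCL1 against Eµ-PRMT5, of the erythroid markers 5 of 7 (0.16) and of the dendritic markers 3 of 6 (0.15). The B markers had a median of 0.30, T and NK markers (5 of 10 tested) -1.54, neutrophil markers 0.68 and macrophage markers (6 of 10) 0.98.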
